A study of Mus musculus with 6 samples.

Results

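The genes described here are 9 of the 21896 protein-coding genes of the mouse, each of which lost chromatin accessibility at several windows when small intestinal organoids were treated with RANKL. They are Tent4a, Kif12, Acss1, Vit, Rgs7, Ptpn14, Man2a1, Cnksr3 and Nnt. Their windows are 58 of the 55056 windows of 200 bp that were counted: every window whose nearest protein-coding gene end lay within 50 kb and belonged to one of the genes, and any further window inside a gene body. The genes were chosen by the read counts of these same 6 libraries, because 3 or more of their windows were called lower with RANKL. The falls below therefore describe the choice and are given without a test of their own.

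The libraries were bulk ATAC-seq, which reads open chromatin by the insertion of adapters by the transposase Tn5, from 50000 cells each of mouse small intestinal organoids, which are cultures of gut epithelium in a matrix gel. All 6 came from a single organoid line (line26), derived from a female mouse that was wild type apart from the Lgr5GFPDTR/+ allele, which places GFP and the diphtheria toxin receptor at the stem cell gene Lgr5 and is carried by controls and treated cultures alike. The 3 RANKL libraries were from cultures given RANKL, the TNF family cytokine that drives microfold (M) cell differentiation, at 100 ng/mL for 6 days. These cultures had first received the GSK3 inhibitor CHIR99021 (3 µM) and the histone deacetylase inhibitor valproic acid (1.5 mM) for 3 days and then ENR alone for 1 day. The 3 control libraries, also labelled day 6, were from ENR medium (EGF, Noggin and R-spondin 1). The labels do not say whether CHIR99021 and valproic acid preceded it. The control library names begin with CVENR, in which C and V could stand for these compounds, but the labels do not spell this out. From the labels alone, an effect of RANKL and one of this pretreatment cannot be told apart. Replicates were separate differentiation experiments, so the spread between them covers culture and library but not different animals. In bulk samples fewer cells of a type and less open chromatin per cell cannot be told apart.

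Accessible windows mark promoters and distal regulatory elements such as enhancers, and genes with many such elements nearby are often controlled by several of them together. Accessibility is not expression. The nearest gene end is a working assignment, because an enhancer can act on a gene further away. The proteins belong to no single textbook pathway and include a phosphatase and a scaffold of growth signalling, a G-protein regulator, mitochondrial and Golgi enzymes, a motor, an mRNA tailing enzyme and a matrix protein.

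Genome sequence of the windows was read only where the RefSeq promoter table (GRCm38.p6, from 250 bases before to 50 after a transcription start) covers it, and 7 of the 9 genes matched an entry. The stretches below are shown because a window lower with RANKL lies at or just before the annotated start of the gene. For Kif12 only 14 of the 250 printed bases lie in that window, and the capitals lie outside it. Capitals mark the KLF motif CCACCC (on either strand, so also GGGTGG), the sequence class bound by Krüppel-like factors.

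Ptpn14, chr1:189728065-189728264, plus strand, the whole window: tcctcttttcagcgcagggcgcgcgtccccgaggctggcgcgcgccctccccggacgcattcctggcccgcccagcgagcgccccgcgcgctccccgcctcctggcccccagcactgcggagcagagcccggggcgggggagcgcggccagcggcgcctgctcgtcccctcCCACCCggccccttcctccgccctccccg
Rgs7, chr1:175492546-175492665, minus strand, the part of the window before the start: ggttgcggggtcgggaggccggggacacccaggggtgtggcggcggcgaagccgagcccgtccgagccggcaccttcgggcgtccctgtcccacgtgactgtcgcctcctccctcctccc
Kif12, chr4:63172132-63172381, minus strand, the 250 bases before the start: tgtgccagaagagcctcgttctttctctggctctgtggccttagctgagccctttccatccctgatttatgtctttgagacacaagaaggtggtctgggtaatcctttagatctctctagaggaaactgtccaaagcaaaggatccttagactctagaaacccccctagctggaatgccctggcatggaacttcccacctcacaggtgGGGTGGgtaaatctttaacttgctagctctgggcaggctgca

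The Ptpn14 and Rgs7 sequences are rich in G and C, at 80.5% and 75.8%, with 28 and 14 CG dinucleotides, whereas the Kif12 sequence is 50.4% G and C and holds 1. In the 250 bases before the start, the KLF motif was present in 5 of the 7 genes (Rgs7, Ptpn14, Acss1, Kif12 and Cnksr3) and in 28.1% of all 32851 promoters. Apart from Kif12, these stretches were 59.2% to 80.8% G and C, against a median of 52.4% over all promoters. The shares over all promoters were not matched for this, so no enrichment or lack is read from the motif counts. The FOX motif TGTTTAC was found only before Cnksr3, and in 3.17% of all promoters. The other 10 motifs searched on both strands matched in 0 of the 7 genes. Among all promoters, the AP-1 motif TGANTCA occurred in 6.75%, the GATA motif AGATAA in 9.99% and the HNF4 motif CAAAGTC in 3.84%. The intestinal CDX motif TTTATNG occurred in 9.81% and the HNF1 motif GTTAAT in 6.43% of them. For NF-kB, which RANKL activates, the letters GGGANTT occurred in 14.4%, and for ONECUT, the factor class in the series title, ATCGAT occurred in 0.728%. The TCF/LEF motif CTTTGAT occurred in 3.21%, the Ets motif CCGGAA in 12% and CCAAT in 33.8%. No motif contains another, although the HNF4 and TCF/LEF letters can overlap in part, and a match or its lack describes only these letters in this stretch.

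Of the 58 windows, 34 had enough counts to be tested in the fit over all windows (edgeR's quasi-likelihood test, Benjamini-Hochberg adjusted p at or under 0.05), 29 were called lower with RANKL and none higher. Over all 21618 tested windows 10.0% were called lower and 10.0% higher; the count for the 9 genes was fixed by how they were chosen and nothing is read from it. All 34 fold changes were negative, with a median log2 fold change (RANKL against control) of -1.20, where the median of all tested windows was 0.01. In 27 of the 34, every RANKL library was below every control library, an arrangement found in 16.9% of all tested windows. The other 24 windows had at most 22 counts in a library and were too shallow to test; their mean was lower with RANKL in 16 and higher in 8.

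Read as a group, the 58 windows held 2255, 2173 and 2011 CPM (CPM is the count scaled by the library's total in tested windows) in the control libraries and 1025, 1120 and 1045 CPM in the RANKL libraries. The groups did not overlap, and each of the 9 gene sums, taken over the windows nearest to the gene's ends, was likewise below every control in every RANKL library. Among all 12465 genes tested by their sums 16.1% show that arrangement, 8.29% were called lower and 7.01% higher.

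**Figure D1:**
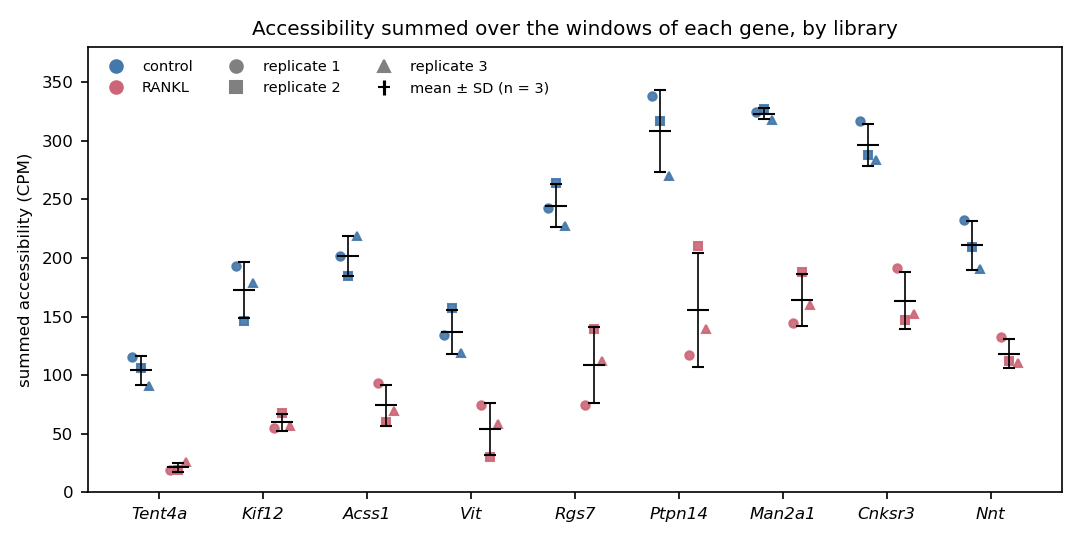
Accessibility summed over the windows nearest to each gene's ends (y axis, CPM) in each library, with control in blue, RANKL in red, marker shape for the replicate and bars for mean and SD (n = 3 per group). The RANKL libraries lie below the controls for all 9 genes, with Tent4a at 19.1 to 26.1 CPM against 90.9 to 116 CPM.

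Among the signalling genes, Rgs7 encodes a regulator of G-protein signalling of the R7 family, which shortens the active state of inhibitory G proteins and works with the beta subunit Gnb5. Its 8 windows summed to 242, 264 and 227 CPM in the controls and to 74.2, 139 and 112 CPM with RANKL, a log2 fold change of -1.14 ± 0.16 (SE). RANKL replicate 2 was the highest of the treated libraries and still lay well under the lowest control. Its gene body is long, chromosome 1 from 175059076 to 175492862 (GRCm38, minus strand). The windows called lower in 200 bp all sat at the start and upstream of it. The window 19529 bp outside the body, upstream of the start, had 50.1, 25 and 36.8 CPM in the controls and 8.14, 2.89 and 4.92 CPM with RANKL, and its log2 fold change of -2.83 ± 0.57 was rank 45 from the most negative of all tested windows. The next window out, 30908 bp from the body, was lower at -2.05 ± 0.43 and the window at the start itself at -1.17 ± 0.35. The call at the start was lost under 3 of the 11 other settings. A window inside the body, 38651 bp from the end, was the best covered one that was not called. It had 75.9, 82.9 and 48.1 CPM against 24.4, 69.3 and 41.0 CPM, with overlapping groups and a log2 fold change of -0.66 ± 0.26. The 2-kb counts around it were called lower (-0.93 ± 0.22).

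Rgs7 also held the clearest exception to the falls. A window 14180 bp upstream of the body, between the start and the window that fell most, had control counts of 1, 0 and 0 and RANKL counts of 1, 5 and 11, too few to test in 200 bp. In the 2-kb counts around the same centre it was called higher, with a log2 fold change of 2.61 ± 0.67. Another window deep in the body, 126784 bp from an end, was also called higher in 2 kb (1.64 ± 0.58) on counts of 0, 2 and 0 against 10, 1 and 1, where RANKL replicate 1 carried nearly all of them. Opposite changes stood within a few kilobases of each other on the upstream side of the gene.

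Ptpn14, a tyrosine phosphatase with a FERM domain that binds the Hippo pathway effector YAP and holds it back, had 338, 316 and 270 CPM over 5 windows in the controls and 117, 210 and 140 CPM with RANKL (log2 fold change -1.0 ± 0.14). The groups did not overlap. The fall was largest 33638 bp into the body (chromosome 1, 189728216 to 189876695, plus strand), where 90.2, 81.6 and 84.9 CPM stood against 24.4, 46.2 and 24.6 CPM (-1.46 ± 0.27). The window printed above, 104 bp from the annotated start, had 58.7, 77.6 and 76.4 CPM in the controls and 20.3, 43.3 and 37.7 CPM with RANKL (-0.98 ± 0.28), again without overlap. The other window called lower, 45695 bp inside the far end, had 93.1, 64.5 and 39.6 CPM against 24.4, 46.2 and 32.8 CPM (-0.99 ± 0.28). Its groups overlapped, and its call was lost under 3 of the 11 other settings. The last windows before the far end of the gene, 9005 and 1142 bp inside it, were not called, at -0.38 ± 0.33 and -0.65 ± 0.34. In the one at 1142 bp every RANKL library was below every control, and the 2-kb counts around it were called lower (-0.74 ± 0.24).

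Cnksr3 encodes a scaffold protein of the CNK family that is induced by aldosterone and promotes sodium channel activity in the kidney. Its 7 windows summed to 317, 288 and 284 CPM in the controls and 191, 147 and 152 CPM with RANKL (-0.90 ± 0.14). The most negative window was in the middle of the body (chromosome 10, 7119061 to 7212237, minus strand), 40396 bp from the nearer end, at 98.8, 82.9 and 82.0 CPM against 52.9, 31.7 and 37.7 CPM (-1.17 ± 0.25), without overlap. The window 717 bp inside the start was also called lower (-0.69 ± 0.25), with RANKL replicate 1 at 61.0 CPM close to the controls' 73.7 to 78.8 CPM. This call and that of the window 21510 bp into the body (-0.62 ± 0.23, with overlapping groups) were each lost under 7 of the 11 other settings. Of the windows that were not called, the best covered had 24.3, 26.3 and 8.49 CPM against 28.5, 5.77 and 14.7 CPM (-0.49 ± 0.53), and its groups overlapped.

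Among the mitochondrial enzymes, Acss1 makes acetyl-CoA from acetate in the mitochondrial matrix, and its 3 windows, all inside the body (chromosome 2, 150618111 to 150668240, minus strand), summed to 202, 184 and 219 CPM in the controls and 93.7, 59.99 and 69.1 CPM with RANKL (-1.47 ± 0.19). The largest change, -1.82 ± 0.43, was 6835 bp inside the start, at 58.7, 43.4 and 28.3 CPM against 24.4, 8.66 and 9.83 CPM. A nearly equal change, on more counts, stood 876 bp inside the start, at 83.1, 67.1 and 105 CPM against 32.5, 20.2 and 24.6 CPM (-1.70 ± 0.29). In each of these windows, the highest RANKL library was below the lowest control.

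Nnt, the transhydrogenase of the inner mitochondrial membrane that makes NADPH at the expense of the proton gradient, had the smallest change of the 9 gene sums: 233, 209 and 190 CPM against 133, 112 and 111 CPM (-0.88 ± 0.16). The groups still did not overlap. The fall was largest 1356 bp outside the lower end of the gene (chromosome 13, 119335527 to 119409257), where 63.0, 86.8 and 62.2 CPM stood against 28.5, 11.5 and 29.5 CPM (-1.58 ± 0.31). All 3 tested windows of Nnt were called lower and lie at or near the ends of the gene, while 2 shallow windows inside it had mean changes in the other direction in 2-kb counts (0.59 ± 0.40 and 0.29 ± 0.44), neither of them called. Of the lower windows, the one 6741 bp inside the upper end went from -1.12 ± 0.35 to -0.57 ± 0.25 in 2 kb and lost its call there and under 3 more settings, and the one 332 bp outside that end lost its call under 3. The reference mouse strain carries a deletion within Nnt, and the strain of the organoid line is not given in the labels.

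Tent4a, a noncanonical poly(A) polymerase that extends mRNA tails with mixed nucleotides, had the largest change of the 9. Its 3 windows summed to 116, 106 and 90.9 CPM in the controls and 19.5, 19.1 and 26.1 CPM with RANKL, 4.83-fold lower (log2 fold change -2.21 ± 0.28) and rank 15 among the falls of all tested gene sums. Controls and RANKL libraries were far apart, with little spread within either. The window with the largest change of all 34, at position 69489747 to 69489946 on chromosome 13, lay 8106 bp beyond the gene's 3′ end and held counts of 26, 21 and 11 in the control libraries against 1, 1 and 2 after RANKL, or 32.0 ± 4.9 against 3.41 ± 0.60 CPM (SD, n = 3; -3.17 ± 0.67, rank 21 of all tested windows). Its RANKL counts are each below 3 counts, so the size of the change is poorly fixed; the 2-kb counts around it gave -1.08 ± 0.29. The other windows lay 15729 bp beyond the same end (-1.99 ± 0.52) and 8573 bp inside it (-1.72 ± 0.44).

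The start of Tent4a stood apart. The window nearest to its annotated start, 963 bp away and closer to an end of A930018O16Rik, which takes it by the assignment used here, had 53.0, 80.2 and 84.9 CPM in the controls and 126, 98.1 and 91.8 CPM with RANKL. All RANKL libraries were above all controls there, but the change of 0.51 ± 0.20 was not called, and the 2-kb counts gave -0.08 ± 0.15. Among the 7 genes with an annotated start Tent4a is the case in which the windows that fell were all far downstream of the start, 27339 to 51641 bp from it.

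Kif12, a microtubule motor of the kinesin family, had windows called lower on both sides of its short body. Its sum over 4 windows was 193, 147 and 179 CPM in the controls and 54.7, 68.2 and 56.8 CPM with RANKL (-1.52 ± 0.20). The largest change was 14429 bp outside the start (chromosome 4, 63157948 to 63172145, minus strand), at 50.1, 46.0 and 36.8 CPM against 0, 14.4 and 8.19 CPM (-2.42 ± 0.47), RANKL replicate 1 having no count. The window that takes in the outermost 14 bases of the printed stretch had 70.2, 57.9 and 56.6 CPM against 20.3, 26 and 14.7 CPM (-1.68 ± 0.35), and the window 869 bp beyond the other end was lower at -0.85 ± 0.31. None of these groups overlapped, but the last call was lost under 6 of the 11 other settings.

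Man2a1, the Golgi alpha-mannosidase that trims N-glycans before complex chains are built, had the most windows called lower, 5 of 6 tested. The sum over its 9 assigned windows was 324, 327 and 318 CPM in the controls and 145, 188 and 160 CPM with RANKL (-0.97 ± 0.14), the tightest control group of the 9 genes. The largest change stood 23019 bp outside the body on the side of the start (chromosome 17, 64600688 to 64755110, plus strand), at 40.1, 51.3 and 31.1 CPM against 8.14, 5.77 and 6.55 CPM (-2.62 ± 0.51). Inside the body the changes were -1.22 ± 0.40, -1.41 ± 0.37, -1.75 ± 0.49 and -0.93 ± 0.35 in order of position. In the window at -1.75 the groups overlapped, on counts of 24, 31 and 9 against 0, 9 and 3. Its call was lost under 2 of the 11 other settings, that of the window at -1.22 under 3 and that of the window at -0.93 under 8. The window at -0.93 was at -0.05 ± 0.18 in the 2-kb counts. The window at the gene's lower end, 39 bp from it, was the best covered and was not called: 81.6, 75.0 and 73.6 CPM against 65.1, 83.7 and 75.4 CPM (-0.03 ± 0.22). With windows within 5 kb alone, which leaves this window by itself, the Man2a1 sum was not called (-0.15). In the 2-kb counts around that window the change was -0.54 ± 0.15 and was called lower.

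Vit encodes vitrin, an extracellular matrix protein with von Willebrand A domains. Its 5 assigned windows summed to 134, 157 and 119 CPM in the controls and 74.2, 30.0 and 58.4 CPM with RANKL (-1.38 ± 0.22), without overlap. The largest change was inside the body (chromosome 17, 78508051 to 78627409), 44883 bp from the nearer end, at 34.4, 34.2 and 28.3 CPM against 8.14, 0 and 8.19 CPM (-2.46 ± 0.58), and the 2-kb counts around it were not called (-0.80 ± 0.32). This window, the other window called lower inside the body and a shallow one there also lie in the long noncoding gene Gm32573. The remaining tested windows changed by -1.38 ± 0.53, 11935 bp outside the lower end, and by -0.95 ± 0.31 inside the body, and both calls were lost under 5 or more of the 11 other settings tried for windows.

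**Figure D2:**
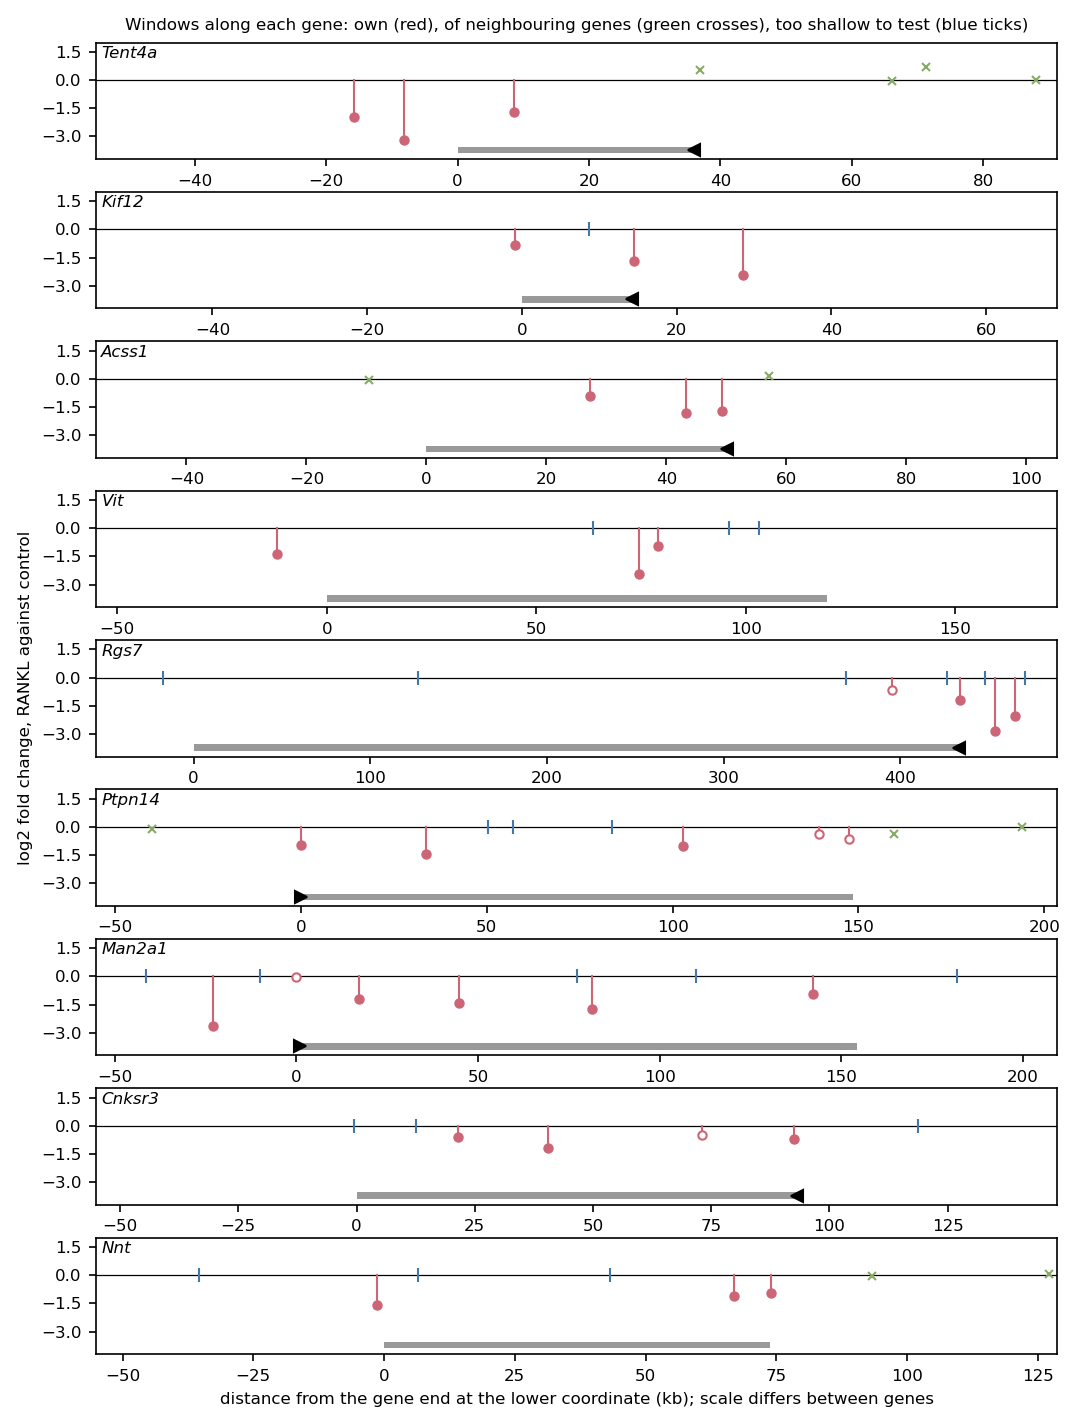
Log2 fold change (RANKL against control, y axis) of each window along the 9 genes (x axis, kb from the gene end at the lower coordinate, scale differing between genes). Red circles are windows of the gene (filled, called lower; open, not called), blue ticks windows too shallow to test, green crosses tested windows within reach that are nearest to other genes, the grey bar the gene body and the black triangle the annotated start and direction where given; 29 of the 34 circles are filled, and no neighbour within 50 kb was called.

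By position, the tested windows outside gene bodies and over 1 kb from an end were all called lower, 8 of 8 with a median of -2.23; inside the body over 1 kb from an end it was 14 of 18 with a median of -1.05, and within 1 kb of an end 7 of 8 with a median of -0.97. Over all tested windows the shares called lower in the same classes were 16.8%, 12.1% and 2.92%, with medians of -0.18, -0.09 and 0.15. The medians of the 9 genes ran in the same order as those of all windows, although -1.05 and -0.97 are close. These counts and medians, and the counts at the starts that follow, come from the read counts that chose the genes. Nothing is read from how far they lie from the shares over all windows. At the annotated start, 5 of the 7 genes with one had their nearest window called lower (Rgs7, Ptpn14, Kif12, Cnksr3 and Acss1), and Tent4a and Man2a1 did not. Among all 7918 tested windows within 1 kb of a start, 3.40% were called lower and 9.41% higher.

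Neighbouring windows were counted in the same fit. Of 105 tested windows within 500 kb of a body that were not assigned to the 9 genes, 8 (7.62%) were called lower and 7 (6.67%) higher, with a median of -0.10. These include 5 windows over 50 kb away that have one of the 9 genes as the nearest, 3 of them among the higher calls, which are described next. Over all tested windows 10.0% were called lower and 10.0% higher. More of the neighbouring windows were called in the 2-kb counts, as given at the end. Within 50 kb of a body none of 9 was called in either direction in the edgeR fit over all windows, with a median of -0.03. Several of these 9 lie within 1 kb of a gene end, where only 2.92% of all tested windows were called lower. No limit to the falls is therefore drawn from them.

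Further out, 17 windows over 50 kb outside any gene still had one of the 9 genes as the nearest, and 5 had enough counts to test. Of these 3 were called higher with RANKL and none lower. Of the 2236 tested windows at that distance from any gene 293 (13.1%) were called higher and 560 lower. The far windows of the 9 genes were singled out after their values were seen, and a shallow window could reach the test through its RANKL counts. The window 111 kb upstream of Cnksr3 (chromosome 10, 7323276 to 7323475) had control counts of 5, 0 and 0 and RANKL counts of 13, 13 and 17, or 7.16, 0 and 0 CPM against 52.9, 37.5 and 27.9 CPM (log2 fold change 3.65 ± 0.65). It was called higher under all 11 other settings, at 1.89 to 7.12, the controls being too close to 0 to fix its size. The window 217 kb beyond the 3′ end of Tent4a had 10.0, 5.26 and 5.66 CPM against 20.3, 23.1 and 34.4 CPM (1.90 ± 0.57), and the window 109 kb upstream of Man2a1 had 31.5, 19.7 and 14.1 CPM against 57.0, 40.4 and 55.7 CPM (1.15 ± 0.35). The groups did not overlap in any of the 3. The Man2a1 call was lost in the 2-kb counts (0.49 ± 0.22), without RANKL replicate 3 and without control replicate 2. Its other tested far windows were not called, at -0.96 ± 0.45 and -0.53 ± 0.47, although in the first every RANKL library (14.4 to 18.0 CPM) was below every control (21.0 to 45.3 CPM) and its 2-kb counts were called lower (-1.08 ± 0.34). In the 2-kb counts, where 16 of the 17 could be tested, 4 were called higher and 2 lower, the second being a window of Nnt at -1.01 ± 0.35. A far window of Cnksr3 with counts of 8, 19 and 2 against 0, 1 and 1 stayed too shallow to test in 200 bp, so no direction is drawn for the far windows as a group. The nearest gene is not shown to be the one these windows act on.

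**Figure D3:**
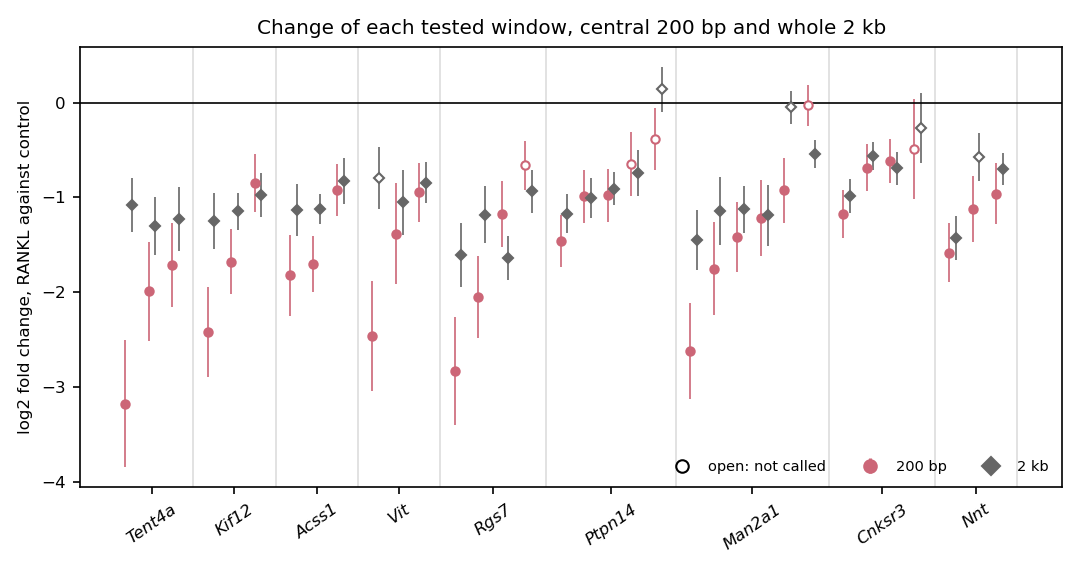
Log2 fold change with SE (y axis) of each of the 34 tested windows by gene (x axis), in the central 200 bp (red circles) and in the whole 2 kb around the same centre (grey diamonds); open markers were not called. The 200-bp changes reach -3.17 for Tent4a, and 27 of the 34 are smaller in 2 kb.

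Each 200-bp window has a deposited value over 2 kb around the same centre, and the width changed the size of the falls more than their calls. The median over the 34 windows was -1.20 in 200 bp and -1.03 in 2 kb, the change was smaller in 2 kb in 27 of 34, and 29 were called lower there, 26 of them among the 29 called in 200 bp. Over all 57 windows of the 9 genes that could be tested in 2 kb, 31 were called lower and 2 higher, where 10.2% and 8.37% of the 49935 tested 2-kb windows were. The gene sums shrank in the same way, from -2.21 to -1.14 ± 0.18 for Tent4a and from -0.88 to -0.51 ± 0.11 for Nnt.

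The centre changed more than its flanks. The central 200 bp of the 34 windows went from 1495, 1443 and 1336 CPM of all central reads in the controls to 621, 671 and 606 CPM with RANKL, 2.25-fold lower. The flanks within 2 kb went from 1407, 1341 and 1284 CPM of all flank reads to 876, 890 and 894 CPM, 1.52-fold lower. The centre held 42.4%, 41.7% and 41.2% of the 2-kb reads in the controls and 28.9%, 27.9% and 27.6% with RANKL. Over all tested windows the share was 41.1% to 41.8% in the controls and 37.9% to 40.6% with RANKL, so the RANKL libraries were lower there too, by less. Its part in the drop at the 9 genes was not tested. The central counts were those that chose the genes, and the flanks were not.

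**Figure D4:**
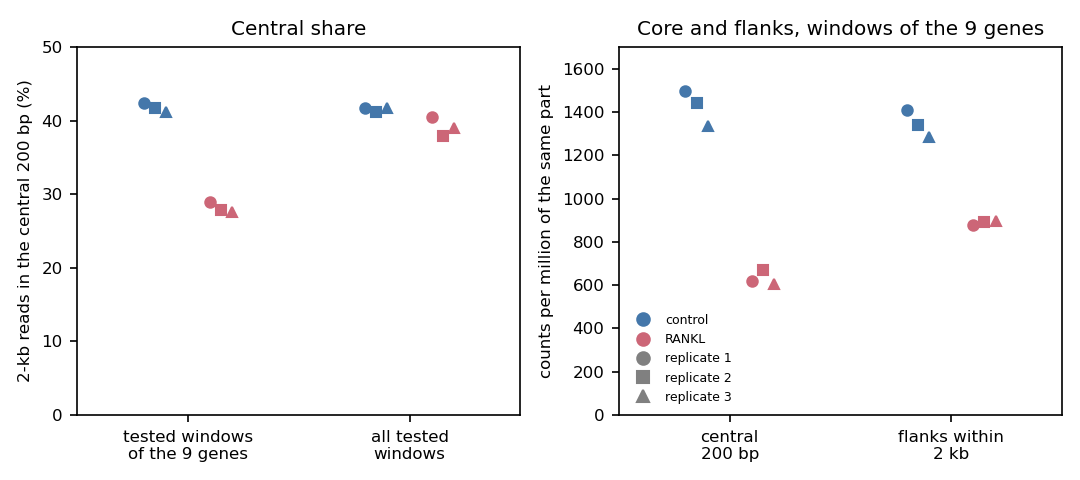
Left, percent of the 2-kb reads that fell in the central 200 bp, for the 34 tested windows of the 9 genes and for all tested windows; right, reads of the 34 windows in CPM of all reads of the same part, centre and flanks; points are libraries (control blue, RANKL red, shape for replicate). RANKL libraries are at 27.6% to 28.9% against 41.2% to 42.4% on the left, and lower in both parts on the right.

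The 9 genes were not the whole of this class. Of 1490 genes with 3 or more tested windows, 20 (1.34%) had at least 3 called lower and the 9 are among them; no rule that parts them from the other 11 is known. Of these 11, Pla2g4a, the cytosolic phospholipase that releases arachidonic acid, had the largest fall of its sum at -1.69 ± 0.22 with 3 of 3 windows lower, and Ndfip2 the smallest at -0.25 ± 0.12. Mtus1, a microtubule-associated protein, had 4 of 8 windows lower at -0.79 ± 0.12, and with Man2a1 it was the only gene with 4 lower windows assigned by nearest end. Just outside the threshold, with 2 of 2 windows lower, stood Rassf9 (-2.03 ± 0.27) and Rbm38 (-1.74 ± 0.23). Among the 1490 genes with 3 or more tested windows, all were lower in 10 genes (0.671%), 5 of which are Tent4a, Kif12, Acss1, Vit and Nnt.

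Paralogs and partners of the 9 genes were mostly not called. Of 100 listed genes 82 could be tested, and 12 were called lower and 3 higher (edgeR's quasi-likelihood test over all genes), with a median log2 fold change of -0.12. Over all 12465 tested genes 8.29% were called lower and 7.01% higher, with a median of 0.01. The lists were measured in the libraries that chose the 9 genes, and only single genes of them were tested. The tailing and deadenylation genes around Tent4a (7 tested), the acetate and acetyl-CoA genes around Acss1 (8 tested) and the matrix proteins with von Willebrand A domains around Vit (3 tested) had none called in either direction.

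Around Ptpn14, 3 of 16 FERM phosphatase and Hippo genes were lower and none higher. Ptpn13, a larger FERM phosphatase, had 84.6, 62.8 and 99.4 CPM in the controls and 43.0, 43.6 and 29.2 CPM with RANKL (-1.12 ± 0.28, edgeR adjusted p = 0.00138), without overlap, but its 2-kb sum was not called at -0.21 ± 0.16. Wwtr1, the YAP paralog TAZ, was lower at -0.72 ± 0.23 (edgeR adjusted p = 0.0175) and Wwc2, a KIBRA family protein upstream of the Hippo kinases, at -0.48 ± 0.15 (edgeR adjusted p = 0.0166). Around Nnt, 2 of 9 genes of mitochondrial NADPH and redox balance were lower: Me2, the mitochondrial malic enzyme, at -0.57 ± 0.14 (edgeR adjusted p = 0.000952) and Nadk2, the mitochondrial NAD kinase, at -0.49 ± 0.16 (edgeR adjusted p = 0.0249). Me2 kept its call under 13 of 14 other settings, all but the sum within 5 kb.

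Around Cnksr3, 2 of 10 tested genes of sodium channel regulation were lower and 1 higher. Scnn1a, the alpha subunit of the epithelial sodium channel, was higher with RANKL at 105, 134 and 64.5 CPM against 40.9, 40.5 and 48.3 CPM in the controls (1.17 ± 0.25, edgeR adjusted p = 0.000123), without overlap. Nr3c2, the mineralocorticoid receptor, was lower at -0.42 ± 0.13 (edgeR adjusted p = 0.0129) and Tsc22d3, a glucocorticoid-induced regulator, at -0.59 ± 0.19 (edgeR adjusted p = 0.0179) with overlapping groups. In N-glycan processing around Man2a1, 2 of 10 genes were lower, the mannosidase Man1a2 at -0.83 ± 0.25 (edgeR adjusted p = 0.0115) and the core fucosyltransferase Fut8 at -0.67 ± 0.22 (edgeR adjusted p = 0.0208). Among 16 kinesins tested with Kif12, Kif5b (-0.63 ± 0.20, edgeR adjusted p = 0.0173) and Kif26b (-0.83 ± 0.28, edgeR adjusted p = 0.0300) were lower and Kif13b (0.40 ± 0.15, edgeR adjusted p = 0.0453) and Kif21b (0.59 ± 0.21, edgeR adjusted p = 0.0383) higher. Of 3 tested partners of Rgs7, the orphan receptor Gpr158, which anchors R7 proteins at the membrane, was lower at -1.08 ± 0.40 (edgeR adjusted p = 0.0470) with overlapping groups.

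Most partner calls depended on the setting: apart from Scnn1a and Me2, each was lost under 3 or more of the other settings. Scnn1a lost its call in the 2-kb counts, at 0.47 ± 0.21, and DESeq2 called 2 lower and 1 higher. The profiles of the 9 gene sums over the 6 libraries were alike by the choice itself, each gene's Pearson r with the mean of the others being 0.836 (Vit) to 0.989 (Tent4a). Of 3212 other genes with at least 4 windows, those closest to their mean profile were Snx18 (r = 0.998), Sypl (0.997), Snap25 (0.995), Ctsc (0.993) and Vav3 (0.993); all 6 libraries share the contrast that chose the 9 genes, so the values are a description only.

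The library totals were 322173 to 976881 counts, so that 3 counts were worth 3.95 to 12.2 CPM on the scale of the window values, and the shallowest was RANKL replicate 1. Epithelial markers of the labelled tissue were open in all libraries: summed accessibility of 10 epithelial genes was 1288 to 1357 CPM in the controls and 1124 to 1277 CPM with RANKL, with 1 of 9 tested called lower. Haematopoietic genes summed to 102 to 115 CPM against 117 to 180 CPM, with every RANKL sum above every control sum, 1 of 3 tested genes called higher (Zap70, 1.20 ± 0.32, edgeR adjusted p = 0.00351), and Cd3e and Lyz2 among those at 0 or without a window. Other cell type markers also changed. Stem cell genes were called lower in 3 of 5 (588 to 742 CPM against 433 to 515 CPM) and enterocyte genes in 2 of 6 (622 to 705 CPM against 476 to 592 CPM). M cell genes were called higher in 3 of 4 tested (62.5 to 76.1 CPM against 272 to 349 CPM). Goblet cell genes were called lower in 1 of 5 (434 to 498 CPM against 323 to 383 CPM), and tuft cell genes lower in 2 and higher in 1 of 4 (289 to 341 CPM against 226 to 243 CPM). The enterocyte and goblet lists were mixed. Every RANKL library was below every control for Sis, Mep1a, Fabp1, Fabp2, Atoh1 and Spdef. Of these, Sis, Mep1a and Atoh1 were called lower, Fabp2 and Spdef were not called, and Fabp1 was too shallow to test. Every RANKL library was above every control for Apoa4, Anpep and Tff3, of which Apoa4 was too shallow to test and the others were not called. Over all tested gene sums, 16.1% had every RANKL library below every control and 14.5% had every one above. Mesenchymal genes (1 of 5 higher, 216 to 286 CPM against 246 to 318 CPM) and endothelial genes (1 of 3 higher, 145 to 213 CPM against 142 to 203 CPM) had overlapping sums, and the only enteroendocrine gene tested was higher. The part of such shifts in the falls at the 9 genes was not tested.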

How the data were processed

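Bulk ATAC-seq was measured in 3 RANKL and 3 control libraries (reads of 38 bp, per the labels). The authors deposited raw read counts in 200-bp windows (mm10), and a score per 2-kb window around the same centres, whose values fit ln(count + 1), centred and scaled by library. The 2-kb counts were recovered from the score and lay within 0.00743 of a whole number. Per the submitters' processing notes, which assign no roles, MACS2 2.2.7, BWA 0.7.17, fastp 0.20.1, DESeq2 and Picard were used. How windows were chosen, and whether reads were shifted for Tn5 or freed of duplicates, is not given in the sources used here. Counts of 200 bp are low, so single windows are imprecise.

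Gene positions are RefSeq's (GRCm38.p6). Windows were assigned to the nearest protein-coding gene end within 50 kb, and windows inside a body of the 9 genes were added. Windows and gene sums were fitted with edgeR 4.0.16 in R 4.3.3 (TMM, filterByExpr, robust quasi-likelihood, no covariates), Benjamini-Hochberg adjusted over all tested features, threshold 0.05; DESeq2 1.42.0 was an alternative. SE is the absolute log2 fold change over the root of F. The script was tested on simulated data. The members and lists were chosen with earlier results of these data known. Named were all 9 genes, for each its window of largest fall and its best covered window not called, up to 4 called genes per partner list, and the 5 genes of most similar profile. Alternatives were the 2-kb counts, distances of 5 and 200 kb, nearest gene bodies, DESeq2, its size factors, no filter on low counts, a replicate block, and leaving out each library.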

Additional observations from a re-analysis of the deposited data

How the results depend on the processing

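The falls of the 9 gene sums kept their direction in every setting run (14 for genes; Tent4a and Vit have no window within 5 kb, so 13), and their call in all but Man2a1 within 5 kb. DESeq2 called fewer features: 1039 windows lower and 1264 higher, 488 genes lower and 408 higher, 16 windows of the 9 genes lower, 2 partner genes lower and 1 higher, and 2 neighbouring windows lower. The 2-kb counts called 5076 windows lower and 4181 higher, 1922 genes lower and 1467 higher, 2 windows of the 9 genes higher, 5 partner genes higher, and 29 neighbouring windows lower and 15 higher; the median over the windows of the 9 genes was -0.78 there, over more windows. Windows within 5 kb left 498 genes lower and 385 higher, 8 windows of the 9 genes lower with a median of -0.97, and 2 partner genes lower and 1 higher. Without a filter on low counts 5 neighbouring windows were lower and 11 higher. The cause of these moves was not tested beyond the number of features each setting leaves.

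Leaving out a library gave 1475 to 2229 windows lower and 1337 to 2802 higher, 667 to 932 genes lower and 545 to 851 higher, 19 to 27 windows of the 9 genes lower (19 without RANKL replicate 3 and without control replicate 1) and 0 to 0 higher, medians of -1.28 to -1.15, 4 to 11 partner genes lower and 1 to 3 higher, and 3 to 8 neighbouring windows lower and 4 to 11 higher. Same-numbered libraries did not deviate together (correlations of -0.03, 0.01 and -0.01), and differently numbered ones were at -0.03 to 0.04. No pairing by number was seen, but counts this low could hide one. With a replicate block 25 windows of the 9 genes were lower, with 1827 windows lower and 1807 higher, and 876 genes lower and 710 higher. Under this block 10 partner genes were lower and 2 higher, and 7 neighbouring windows lower and 6 higher. Low counts limit single windows most: the RANKL counts of the most negative ones were 0 to 5 in a library.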
